A study of Arabidopsis thaliana with 32 samples.

Results

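The genes described here are 10 heat shock transcription factors (HSFs) of Arabidopsis thaliana, taken from a count table of 33602 genes by their locus identifiers: HSFA1A (AT4G17750), HSFA1B (AT5G16820), HSFA1D (AT1G32330), HSFA1E (AT3G02990), HSFA2 (AT2G26150), HSFA7A (AT3G51910), HSFA7B (AT3G63350), HSFB1 (AT4G36990), HSFB2A (AT5G62020) and HSFB2B (AT4G11660). Whole seedlings of wild-type Columbia (Col-0) spent 3 days at 21 °C in constant white light and were then moved to 30 °C with low R/FR (30FR, warm shade), to 30 °C in white light (30WL) or to 21 °C with low R/FR (21FR), or were kept at 21 °C in white light (21WL). Low R/FR, a red to far-red ratio of 0.6, mimics the shade of neighbouring plants. RNA was sequenced after 1, 3, 6 and 24 h in 2 biological replicates of about 25 seedlings each, which gave 16 groups and 32 libraries. All groups share the genotype, the light intensity of about 70 µmol m-2 s-1 and the days at 21 °C, and since each replicate is a pool of whole seedlings, a change in 1 organ cannot be told apart from a smaller change in all organs, nor fewer cells of a type from less RNA per cell.

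HSFs bind heat shock elements, repeats of the short unit nGAAn in alternating orientation, in front of genes for heat shock proteins and other chaperones. In plants the HSFA1 factors are present before heat. They are held inactive by HSP70 and HSP90 chaperones and are the first to act when unfolded proteins draw the chaperones away. HSFA2, HSFA7A and HSFA7B are activators that are themselves made upon heat, and HSFA2 is known to extend the heat response in Arabidopsis. Class B factors lack the activator motif of class A, and HSFB1 and HSFB2B are known as repressors of HSF genes.

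Gene counts summed to 7606788 in the shallowest library, 18502913 at the median and 28170966 in the deepest. Levels are given as CPM, counts scaled to a common library size with edgeR's TMM factors. A filter of 1 CPM, to be exceeded by 2 libraries or more, left 20145 genes and 9 of the 10 HSFs. One model of the 16 groups was fitted to them with edgeR's quasi-likelihood method, and a gene was called where the FDR (Benjamini-Hochberg over all 20145 genes) was below 0.05 and the absolute log2 fold change (log2FC) exceeded 1. The p-values measure the spread between seedling pools, and the comparisons of 30FR, 30WL and 21FR with 21WL share the same 21WL libraries. The RNA looked like that of green seedlings: markers of cotyledons summed to 21664 to 58631 CPM, those of roots to 51.2 to 89.4 CPM, those of seed storage to 0.295 to 26.1 CPM and those of flowers to 0 to 1.29 CPM. The lowest cotyledon sums were those of 30FR at 24 h. Replicate 2 of 1 group stood apart for HSF-related genes. The second library of 30WL at 3 h had 5920.1 CPM of 22 genes known as HSF targets, mostly heat shock protein genes, against 1471 CPM in replicate 1, while over all genes the replicates correlated at r = 0.991 and 103 genes differed more than 2-fold between them (36 to 412 over the 16 groups). HSFA2, HSFA7B, HSFA7A, HSFB2B and HSFB2A differed between the replicates by 3.32, 3.01, 2.67, 1.91 and 1.56 on the log2 scale.

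HSFA2, HSFA7A and HSFA7B hold heat shock elements of 3 units before the gene start. Of these, HSFA7A was called higher at 3 h only, and a single library carried that call. HSFB2A, which was higher in the warmth, holds none of the motifs searched. The stretches before HSFA2, HSFA7A, HSFA7B and HSFB2A are shown. They run from 250 bases before the annotated gene start (for HSFA2 from the end of the neighbouring gene AT2G26140, 158 bases) up to the base before it, on the RefSeq TAIR10.1 assembly. The genes themselves lie on the plus strand at chromosome 2, 11135624 to 11137792 (HSFA2), chromosome 3, 19265141 to 19266806 (HSFA7A), chromosome 3, 23399236 to 23400812 (HSFA7B) and chromosome 5, 24915807 to 24917643 (HSFB2A), as does HSFB2B at chromosome 4, 7042354 to 7044708. Capitals mark heat shock elements of 2 or more units.
HSFA2, chr2:11135466-11135623, plus strand: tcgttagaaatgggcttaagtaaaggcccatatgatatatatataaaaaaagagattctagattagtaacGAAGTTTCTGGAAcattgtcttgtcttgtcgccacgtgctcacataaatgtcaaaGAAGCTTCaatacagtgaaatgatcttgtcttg
HSFA7A, chr3:19264891-19265140, plus strand: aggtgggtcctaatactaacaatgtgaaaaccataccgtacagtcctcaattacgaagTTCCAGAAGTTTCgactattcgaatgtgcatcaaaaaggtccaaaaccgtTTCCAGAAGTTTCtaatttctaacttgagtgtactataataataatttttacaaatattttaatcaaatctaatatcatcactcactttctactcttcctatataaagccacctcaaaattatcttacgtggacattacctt
HSFA7B, chr3:23398986-23399235, plus strand: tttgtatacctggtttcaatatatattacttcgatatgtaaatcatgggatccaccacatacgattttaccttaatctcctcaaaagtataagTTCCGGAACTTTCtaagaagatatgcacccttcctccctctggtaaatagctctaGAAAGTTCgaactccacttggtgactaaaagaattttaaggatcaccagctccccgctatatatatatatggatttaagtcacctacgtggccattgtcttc
HSFB2A, chr5:24915557-24915806, plus strand: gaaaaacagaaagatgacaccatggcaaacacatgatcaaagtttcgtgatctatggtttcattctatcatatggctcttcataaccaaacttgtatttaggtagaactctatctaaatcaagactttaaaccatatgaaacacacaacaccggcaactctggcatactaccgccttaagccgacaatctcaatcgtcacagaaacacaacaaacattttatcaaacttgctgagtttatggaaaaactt

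Both strands were read for 2 units (GAANNTTC or TTCNNGAA, each its own reverse complement) and for 3 units (GAANNTTC followed directly by NNGAA, or TTCNNGAA followed directly by NNTTC, each the reverse complement of the other), so that 1 element of 3 units holds 2 overlapping elements of 2 units. Of 27443 promoters of the same length, 16.1% held an element of 2 units and 0.386% one of 3 units. Positions are counted from the annotated gene start. The only 3-unit element of HSFA2 began at -88.
HSFA2, chr2:11135536-11135548: GAAGTTTCTGGAA
HSFA7A carried the same 13 bases at 2 places, -192 and -142.
HSFA7A, chr3:19264949-19264961 and chr3:19264999-19265011: TTCCAGAAGTTTC
The element of HSFA7B began at -157.
HSFA7B, chr3:23399079-23399091: TTCCGGAACTTTC
HSFA2 and HSFA7B each had a further element of 2 units, at -33 in HSFA2 and at -102 in HSFA7B, and HSFA1E had a single one at -44. No match was found in the windows of HSFA1A, HSFA1B, HSFA1D, HSFB1, HSFB2A and HSFB2B, which says only that these letters are not in this window. The G-box CACGTG, a motif bound by PIF factors among others and present in 6.49% of promoters, occurred before HSFA2 (at -56) and HSFA1E (at -169).

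**Figure D1:**
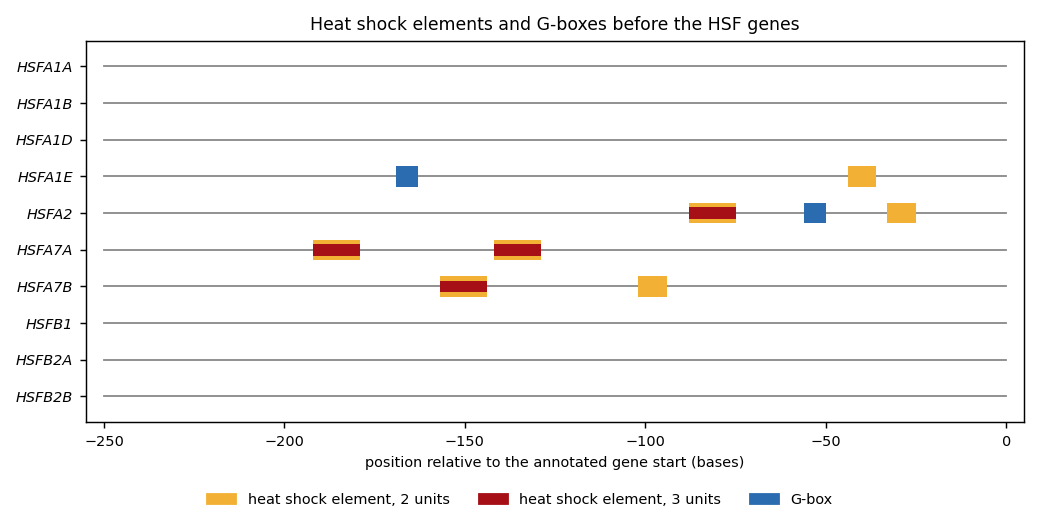
Positions of motif matches in the 250 bases before each of the 10 HSF genes, with distance from the annotated gene start in bases on the x axis. Elements of 3 units (dark red) lie before HSFA2, HSFA7A (2 of them) and HSFA7B only, elements of 2 units (yellow) also before HSFA1E, and G-boxes (blue) before HSFA2 and HSFA1E.

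The HSFA2 transcript was higher at 30 °C than at 21 °C at every time point. Its highest levels were those of 30FR at 1 h, while in 30WL replicate 2 of 3 h (148 CPM) was level with the higher library of 1 h (147 CPM). At 1 h it stood at 191 and 180.0 CPM under 30FR and at 147 and 118 CPM under 30WL, against 7.16 and 3.71 CPM under 21FR and 11.3 and 5.39 CPM in 21WL. The lowest warm library was thus far above the highest cool one. At 3 h HSFA2 had 15.5 and 6.32 CPM under 30FR and 14.3 and 148 CPM under 30WL, against 0.63 and 0.719 CPM under 21FR and 1.99 and 1.20 CPM in 21WL. At 6 h the values were 5.93 and 9.31 CPM under 30FR and 3.59 and 4.13 CPM under 30WL, against 1.15 and 1.28 CPM under 21FR and 1.58 and 1.46 CPM in 21WL. At 24 h they were 8.20 and 9.47 CPM under 30FR and 7.17 and 5.31 CPM under 30WL, against 1.34 and 0.954 CPM under 21FR and 2.43 and 1.70 CPM in 21WL. At none of the 4 time points did the warm and cool libraries overlap, although at 6 and 24 h the warm level (3.59 to 9.47 CPM) overlapped with that of the 21WL seedlings at 1 h (5.39 and 11.3 CPM).

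Averaged over the light conditions (4 warm against 4 cool libraries), the log2FC of HSFA2 was 4.56 at 1 h, 4.87 at 3 h, 2.001 at 6 h and 2.27 at 24 h, called each time (FDR 1.46e-07, 2.31e-06, 0.0232 and 0.00865, edgeR). The calls at 1, 3 and 24 h stood with any 1 library left out (4.33 to 4.86, 3.61 to 5.30 and 2.14 to 2.41). The call at 6 h was lost without either replicate of 21WL or of 21FR at 6 h, or without replicate 2 of 30WL or of 30FR at 6 h, with log2FC of 1.82 to 2.03. Against 21WL, the log2FC of 30FR was 4.497 at 1 h (95% interval 3.17 to 5.83, FDR 2.53e-05), 2.82 at 3 h (1.03 to 4.62, FDR 0.0213) and 2.33 at 6 h (0.61 to 4.06, FDR 0.0483), and at 24 h it was 2.09 (0.40 to 3.79) with an FDR of 0.0722. The 3 h call fell without either replicate of 21WL (log2FC 3.15 and 2.44) or without replicate 1 of 30FR (2.04), and the 6 h call without any of the 4 libraries compared (1.95 to 2.61). In 30WL it was 4.01 at 1 h (2.69 to 5.32, FDR 0.000116) and 5.74 at 3 h (4.09 to 7.40, FDR 3.88e-05), and 1.36 and 1.57 at 6 and 24 h, where it was not called (FDR 0.419 and 0.284). Without replicate 2 of 30WL at 3 h the values of HSFA2 in 30WL were 3.22 at 3 h and 1.58 at 24 h. In 30FR at 24 h HSFA2 stood at 2.098, with an SE of 0.43 against 0.82 with all libraries. HSFA2 was then called at 24 h in both, with hardly changed log2FC.

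The level of HSFA2 in the control seedlings also differed between the time points. In 21WL, HSFA2 was lower at 3, 6 and 24 h than at 1 h by log2FC of -2.42, -2.43 and -1.99, none of which was called (FDR 1, 0.227 and 0.186, unadjusted p = 0.014, 0.0093 and 0.028 in edgeR's model), while DESeq2 called the one at 6 h (-2.44, FDR 0.0237). Without replicate 2 of 30WL at 3 h the falls at 6 h and 24 h were called, though that library is not part of these comparisons. HSFB2B in 21WL had 11.2 to 11.8 CPM in the 6 later libraries against 22.8 and 19.9 CPM at 1 h (log2FC -0.89, -0.91 and -0.91, not called). In edgeR's test 0 HSFs were called between 21WL at 3, 6 or 24 h and at 1 h (unadjusted p under 0.05 for HSFA2 and HSFB2B at each time and for HSFA7A at 6 h), beside 0, 0.154 and 1.05% of all genes (1.02% at 24 h without that library).

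**Figure D2:**
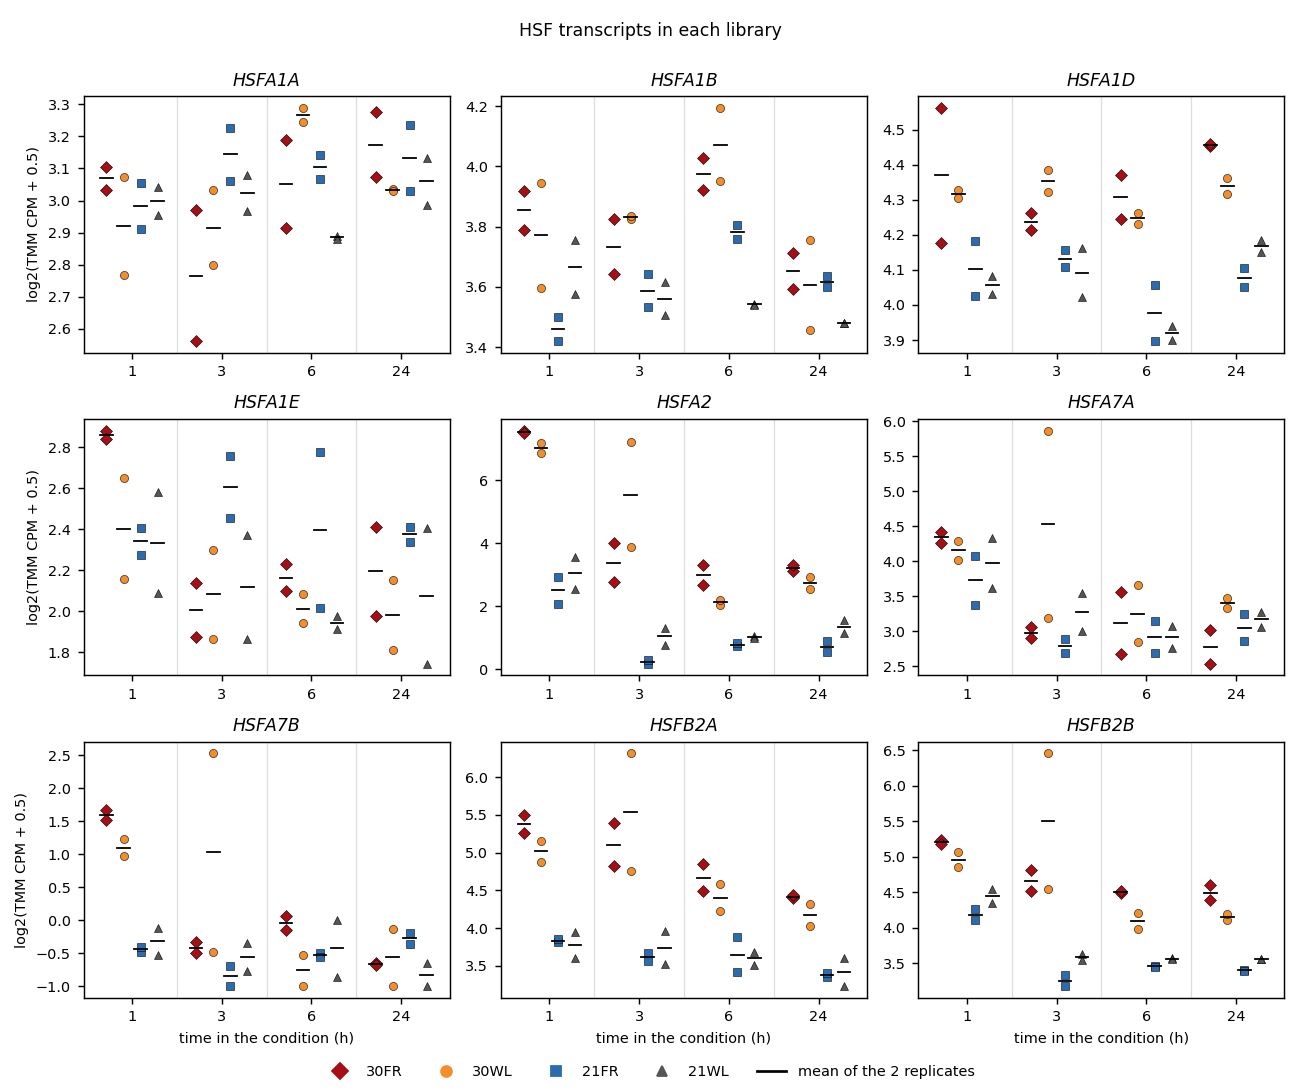
Transcript level of 9 HSFs in every library, as log2 of TMM CPM plus a pseudocount of 0.5 (y axes differ between panels), by hours in the condition (x axis) and condition (colour and shape), with 1 point per replicate and bars for the mean of 2. HSFA2, HSFB2A and HSFB2B were higher in both warm conditions at each time, and replicate 2 of 30WL at 3 h lies far above its partner for these 3 genes and for HSFA7A and HSFA7B.

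HSFA7A and HSFA7B are close relatives of HSFA2. HSFA7B was scarce, and its warm and cool libraries were apart at 1 h. At 1 h it had 39 and 46 counts in 30FR (2.68 and 2.37 CPM) and 21 and 37 counts in 30WL (1.46 and 1.84 CPM), against 3 and 4 counts in 21FR and 3 and 8 counts in 21WL (0.193 and 0.423 CPM). At 6 h the warm groups held 9 and 15 counts in 30FR and 0 and 3 counts in 30WL, against 4 and 5 counts in 21FR and 1 and 9 counts in 21WL, so that the warm and cool libraries overlapped. At 24 h no library held more than 9 counts and no fold change is given. The depth allows up to 3 counts where none was seen, which is 0.104 to 0.371 CPM depending on the library and covers counting error only. The log2FC of HSFA7B at 1 h was 2.96 in 30FR over 21WL (SE 0.92, FDR 0.0168, called) and 2.37 in 30WL over 21WL (SE 0.95, FDR 0.0745, not called). The first call was lost without either 21WL replicate (2.55 and 3.66) or without replicate 1 of 30FR (2.87), and the second was gained without replicate 2 of 30WL at 3 h (FDR 0.0153).

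HSFA7A had 20.8 and 18.7 CPM under 30FR and 19.0 and 15.8 CPM under 30WL at 1 h, against 16.4 and 9.85 CPM under 21FR and 11.7 and 19.7 CPM in 21WL. These libraries overlapped, and the log2FC averaged over light was 0.36 ± 0.36 (SE, FDR 0.433). At 6 and 24 h the averaged log2FC was 0.37 and -0.01 (FDR 0.492 and 0.993). The only time at which HSFA7A was called was 3 h, where 30WL held 8.63 and 57.7 CPM and 30FR 6.96 and 7.88 CPM, against 5.94 and 6.95 CPM under 21FR and 7.52 and 11.1 CPM in 21WL. A single library thus carried it: the log2FC of 30WL over 21WL was 1.83 (FDR 0.0151) with all libraries and -0.14 (FDR 0.89) without replicate 2 of 30WL, and the call was also lost without replicate 1 of 21WL at 3 h (1.59). HSFA7B at 3 h behaved alike, with 3 and 104 counts in 30WL against 1 and 5 counts in 21WL, and a log2FC of 3.78 (FDR 0.0102) with all libraries and 0.10 (FDR 0.979) without that replicate. Its call was also lost without replicate 1 or replicate 2 of 21WL at 3 h (3.30 and 4.96). Averaged over light at 3 h, HSFA7A stood at 1.02 and HSFA7B at 2.95 with all libraries and at 0.04 and 1.11 without replicate 2 of 30WL (FDR 0.924 and 0.379).

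The class B factors HSFB2A and HSFB2B were higher in the warmth at all 4 time points, with smaller fold changes than HSFA2. HSFB2A had 44.8 and 37.7 CPM under 30FR and 28.9 and 35.0 CPM under 30WL at 1 h, against 13.5 and 13.9 CPM under 21FR and 14.95 and 11.7 CPM in 21WL. At 24 h it still had 20.5 and 21.2 CPM under 30FR and 15.8 and 19.4 CPM under 30WL, against 9.75 and 10.1 CPM under 21FR and 11.7 and 8.89 CPM in 21WL. The warm and cool libraries of HSFB2A did not overlap at any time. HSFB2A was called in 30FR over 21WL at 1, 3, 6 and 24 h, with log2FC of 1.63, 1.42, 1.102 and 1.02 (FDR 0.000725, 0.00337, 0.019 and 0.035). In 30WL it was called at 1 and 3 h (1.27 and 2.05, FDR 0.00733 and 0.000182) but not at 6 and 24 h (0.82 and 0.79, FDR 0.125 and 0.156). Without replicate 2 of 30WL at 3 h the 3 h value was 1.04 (FDR 0.0122). The 30WL call at 1 h was lost without replicate 2 of 21WL (1.11) or of 30WL (1.12). In 30FR the 3 h call was lost without replicate 2 of 21WL (1.20) or replicate 1 of 30FR (1.099), the 6 h call without either 21WL replicate (1.16 and 0.999) or replicate 1 of 30FR (0.91), and the 24 h call without replicate 2 of 21WL (0.84) or either 30FR replicate (1.04 and 0.997).

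HSFB2B, a repressor of HSF genes that in Arabidopsis also dampens HSFA2, had 37.1 and 35.7 CPM under 30FR and 33.0 and 28.4 CPM under 30WL at 1 h, against 18.7 and 16.7 CPM under 21FR and 22.8 and 19.9 CPM in 21WL. At 3 h it had 27.7 and 22.3 CPM under 30FR and 23.0 and 87.4 CPM under 30WL, against 8.55 and 9.59 CPM under 21FR and 11.8 and 11.2 CPM in 21WL. At 6 h the values were 22.1 and 22.4 CPM under 30FR and 15.3 and 17.9 CPM under 30WL, against 10.5 and 10.4 CPM under 21FR and 11.4 and 11.3 CPM in 21WL, and at 24 h 20.4 and 23.7 CPM under 30FR and 16.7 and 17.9 CPM under 30WL, against 10.1 and 10.03 CPM under 21FR and 11.3 and 11.3 CPM in 21WL. Warm and cool libraries were apart each time. The averaged log2FC of HSFB2B was 0.78, 1.87, 0.83 and 0.87 at 1, 3, 6 and 24 h (FDR 0.00812, 2.8e-06, 0.011 and 0.00826), past the FDR threshold each time and past the fold threshold at 3 h only (where it was 1.23 without replicate 2 of 30WL). At 3 h the log2FC was 1.12 in 30FR (FDR 0.0187) and 2.28 in 30WL (FDR 7.13e-05) over 21WL, and without replicate 2 of 30WL the value of 30WL was 0.99 (FDR 0.000208), just under the fold threshold. The 30FR call at 3 h was lost without either 21WL replicate (1.14 and 1.07) or replicate 1 of 30FR (0.95). Without the 30WL library the SE of HSFB2B at 1 h in 30FR over 21WL was 0.11 instead of 0.31, and HSFB2B then passed the FDR threshold in both warm conditions at every time.

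HSFB1, the other class B repressor on the list, is heat-induced in Arabidopsis, but it had a count of 0 in all 32 libraries and could not be tested. All 1685 of its 50-base exon windows occur once in the genome, its neighbours AT4G36980 and AT4G37000 held 1169 to 3916 and 411 to 1965 counts per library, and the table also lists AT4G36988, with 0 in every library. RefSeq notes an upstream open reading frame inside the HSFB1 transcript. Of 84 genes with such a note, 40 (47.6%) had 0 in all libraries, against 2750 of 26628 other protein-coding genes (10.3%). Reads that fell on more than 1 gene at the same place were left uncounted by the authors' counting program (0.262 to 0.529% of a library's total), and the part of this in the zeros of HSFB1 was not tested. The zeros are therefore not read as a missing transcript.

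The 4 HSFA1 genes moved little. HSFA1D, the most abundant of them, had 17.6 to 23.1 CPM in the 16 warm libraries (median 19.5) against 14.4 to 17.7 CPM in the 16 cool ones (median 16.3). Its averaged log2FC was 0.28, 0.19, 0.34 and 0.28 at 1, 3, 6 and 24 h (FDR 0.00366, 0.0405, 0.00109 and 0.00465), small but past the FDR threshold each time, and without replicate 2 of 30WL at 3 h it passed at 1, 6 and 24 h. HSFA1B had 10.5 to 17.8 CPM in the warmth (median 13.7) against 10.2 to 13.5 CPM at 21 °C (median 11.3), and was past the FDR threshold at 1 and 6 h (averaged log2FC 0.27 and 0.37, FDR 0.0179 and 0.00232). HSFA1A and HSFA1E did not pass it in this average at any time. HSFA1A had 5.40 to 9.27 CPM in the warmth against 6.86 to 8.91 CPM at 21 °C, and its averaged log2FC at 1 h was 0.01 with a 95% interval of -0.22 to 0.24. HSFA1E had 3.01 to 6.87 CPM in the warmth against 2.85 to 6.35 CPM at 21 °C, and its highest values, 6.87 and 6.66 CPM, were those of 30FR at 1 h (log2FC over 21WL 0.56, interval -0.03 to 1.15, FDR 0.139).

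Per kilobase of exon the order of the HSFs changed with the temperature. In 21WL the medians over 8 libraries were 7.74 CPM per kb for HSFA1D, 7.37 for HSFA7A, 6.66 for HSFB2A, 5.55 for HSFA1B, 5.01 for HSFB2B, 4.38 for HSFA1A, 1.86 for HSFA1E, 0.982 for HSFA2 and 0.152 for HSFA7B. The ranges of neighbours overlapped among the first 5 and between HSFA1E and HSFA2, while HSFB2B (4.94 to 10.04) and HSFA1A (4.08 to 4.92), HSFA1A and HSFA1E (1.47 to 2.83), and HSFA2 (0.64 to 6.01) and HSFA7B (0 to 0.468) did not overlap. In 30FR HSFB2A came first (median 15.9 CPM per kb, range 11.7 to 25.5). HSFB2B (10.2, range 8.99 to 16.4) and HSFA1D (9.31, range 8.42 to 11.1) followed, and the ranges of neighbours overlapped. In 30WL HSFB2A came first as well (14.2, range 9.01 to 45.1). HSFA7A (9.87, range 5.76 to 49.8) and HSFA1D (9.33, range 8.76 to 9.77) followed in 30WL with overlapping ranges, and with replicate 2 of 30WL at 3 h left out their order turned (9.22 for HSFA7A and 9.31 for HSFA1D). At 1 h in the warmth HSFA2 was the most abundant, with 62.8 to 102 CPM per kb in the 4 warm libraries. HSFB2A (16.5 to 25.5 CPM per kb) and HSFA7A (13.6 to 18.0 CPM per kb) came next, with overlapping ranges.

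Counted together, 2 of the 9 tested HSFs were called higher in 30WL than in 21WL at 1 h (HSFA2, HSFB2A), beside 2.28% of all genes, 5 at 3 h beside 1.76%, 0 at 6 h beside 1.08% and 0 at 24 h beside 0.953%. Unadjusted p-values in edgeR's model were under 0.05 for 4 HSFs at 6 h and 1 at 24 h, and DESeq2 also called 0 at both times. No share of all genes is given at the unadjusted cutoff, here or in other comparisons. Numbers at that cutoff are therefore not read as a result about the HSFs. The 30FR libraries of 6 and 24 h held 20460613 to 26957088 gene counts. Those of 30WL held 7606788 and 14924687 at 6 h, and 8750851 and 12949448 at 24 h. The part of this lower depth in the 30WL calls was not tested. Numbers of HSFs called with 1 library left out stand, here and below, without a share of all genes unless one is printed. Without replicate 2 of 30WL at 3 h, 2 were called at 3 h (HSFA2, HSFB2A) beside 1.14% of all genes, 3 at 1 h beside 2.25% and 1 at 24 h beside 1.01%. The number at 1 h was 1 without replicate 2 of 21WL or of 30WL, and that at 3 h was 3 without replicate 1 of 21WL. In 30FR over 21WL, 3, 3, 2 and 1 HSFs were called higher at 1, 3, 6 and 24 h, beside 3.52, 2.08, 2.05 and 1.72% of all genes. The median log2FC of the 9 HSFs was 0.56, 0.19, 0.45 and 0.30, and that of all genes -0.02, 0.00, 0.02 and 0.01. None was called lower. The 3 h number was 1 without replicate 1 and 0 without replicate 2 of 21WL, and 0 without replicate 1 of 30FR. The 6 h number was 0 or 1 without any of the 4 libraries compared, and the 24 h number was 0 without replicate 2 of 21WL or either replicate of 30FR, and 2 with replicate 2 of 30WL at 3 h left out. Organ markers moved as well, and all 5 cotyledon markers were tested. In 30FR at 24 h 4 were past the FDR threshold as lower than in 21WL. Of these 2 were called (CAB1 -1.42, CAB3 -1.34), given without a share of all genes called lower. At 6 h 3 of the 5 were past it as lower in 30FR and 2 in 30WL. At 3 h 3 were past it as higher in 30FR and 1 in 30WL. Of 4 root markers, PHT1;1 was called lower in 30FR at 1 h (-1.17) and EXPA7 was past the FDR threshold as higher in 30FR at 24 h (0.70). The 5 cotyledon markers summed at 24 h to 22607 and 21664 CPM under 30FR, 32481 and 31659 CPM under 30WL and 39146 and 39435 CPM under 21FR, against 35565 and 48895 CPM in 21WL. The sum hides opposite changes in 30WL at 24 h. There LHCA1 (0.75) and CAB3 (0.62) were past the FDR threshold as higher and RBCS1A (-0.78) as lower. Of 4 seed storage markers, CRA1 was called higher in 30FR at 6 h (2.98). At 24 h 1 of the 4 was called higher in 30FR and 2 in 30WL. The 4 summed at 24 h to 0.938 and 6.20 CPM under 30FR and to 5.72 and 26.1 CPM under 30WL, against 1.42 and 0.746 CPM in 21WL. The part of these organ markers in the HSF values was not tested.

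In the comparison of 30 °C with 21 °C within low R/FR (30FR over 21FR), 4 HSFs were called higher at 1 h (HSFA2 5.11, HSFA7B 3.37, HSFB2A 1.58, HSFB2B 1.04) beside 2.85% of all genes. HSFA2, HSFB2A and HSFB2B were called at 3 h (4.003, 1.55 and 1.47), 6 h (2.65, 1.02 and 1.09) and 24 h (2.96, 1.07 and 1.13), beside 2.47, 1.45 and 1.61% of all genes. With 1 library left out, the number called was 2 at 1 h without either replicate of 21FR or replicate 1 of 30FR. It was 0 or 1 at 6 h without any of the 4 libraries compared. At 24 h it was 0 without either replicate of 21FR or replicate 2 of 30FR. Averaged over light, 3, 5, 1 and 1 HSFs were called higher at 1, 3, 6 and 24 h, beside 2.98, 2.08, 1.48 and 1.5% of all genes, and with the FDR threshold alone 6, 6, 5 and 4, beside 21.2, 20.2, 16.9 and 14.7% (3 at 3 h with replicate 2 of 30WL left out). With the FDR threshold alone there were 2 in 30WL over 21WL at 6 h, beside 6.43% of all genes, and 5 and 3 in 30FR over 21WL at 6 and 24 h, beside 12 and 9.29%. The averaged number was 3 at 3 h without replicate 2 of 30WL or replicate 1 of 21FR or of 30FR, 0 at 6 h without either replicate of 21WL or replicate 1 of 21FR, and 2 at 24 h without replicate 1 of 21WL.

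**Figure D3:**
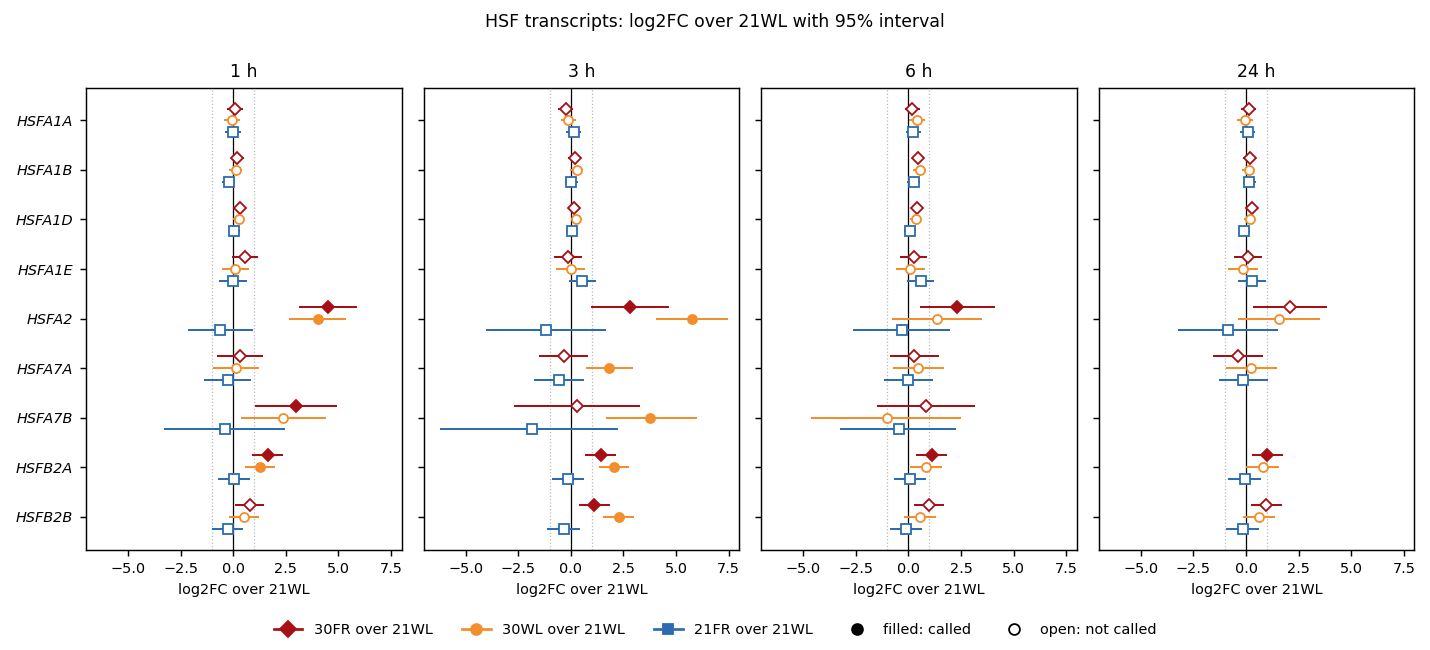
Log2FC over 21WL (x axis) with 95% intervals for 9 HSFs (rows) at 1, 3, 6 and 24 h, in 30FR (red diamonds), 30WL (orange circles) and 21FR (blue squares), filled where called. Filled symbols belong to HSFA2, HSFA7A, HSFA7B, HSFB2A and HSFB2B in the warm conditions, no 21FR symbol is filled, and the wide intervals of HSFA7B at 6 h rest on at most 15 counts per library (none is drawn for HSFA7B at 24 h).

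Low R/FR without warmth changed none of the HSFs past the threshold. In 21FR over 21WL, 0 of 9 were called at 1, 3, 6 and 24 h, beside 0.228, 0.204, 0.367 and 0.328% of all genes, the smallest FDR was 0.65, and DESeq2 called 0 as well. At an unadjusted p under 0.05 in edgeR's model there were 0 (1 each at 1 and 3 h with replicate 2 of 30WL at 3 h left out). HSFA2 in 21FR over 21WL had log2FC of -0.61, -1.18, -0.32 and -0.87 at the 4 times, with intervals from -2.12 to 0.89, -4.004 to 1.62, -2.58 to 1.94 and -3.20 to 1.45, so that changes of several-fold in either direction remain possible at 1 time point. Averaged over both temperatures and all 4 times (16 against 16 libraries), low R/FR gave log2FC between -0.49 (HSFA2) and 0.27 (HSFA1E), 0 HSFs called beside 0.362% of all genes. With replicate 2 of 30WL at 3 h left out, HSFA2 stood at -0.18 (FDR 0.591) and HSFA7B at 0.21 in place of -0.24. Again 0 HSFs were called, beside 0.367% of all genes. HSFA1E (unadjusted p = 0.016, edgeR, FDR 0.113) and HSFA7A (-0.47, unadjusted p = 0.021 in the same model, FDR 0.132, but -0.23 and FDR 0.291 without replicate 2 of 30WL at 3 h) had the smallest p-values. DESeq2 called 0.

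Within the warmth, HSFs were called between low R/FR and white light at 3 h, and these calls rested on 1 library. In 30FR over 30WL, edgeR called 0 HSFs at 1, 6 and 24 h, beside 0.347, 0.213 and 0.452% of all genes, with 0 at an unadjusted p under 0.05 (1, 2 and 1 with replicate 2 of 30WL at 3 h left out) and 0 with DESeq2. At 3 h, 3 were called lower (HSFA2 -2.92, HSFA7A -2.18 and HSFA7B -3.50, FDR 0.00933, 0.0269 and 0.0435), beside 0.625% of all genes. Without replicate 2 of 30WL at 3 h none was, beside 0.278% of all genes, and the log2FC were -0.41, -0.22 and 0.17. The number was also 0 without replicate 2 of 30FR, 1 without replicate 1 of 30FR and 5 without replicate 1 of 30WL.

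The interaction, that is whether low R/FR acted differently at 30 °C than at 21 °C, was not called for any HSF (0 at each time, beside 0, 0, 0 and 0.00993% of all genes, also 0 with DESeq2). HSFA2 had interaction terms of 1.101, -1.73, 1.29 and 1.39 on the log2 scale at 1, 3, 6 and 24 h (FDR 1, 0.917, 1 and 0.886), and HSFB2B of 0.52, -0.81, 0.53 and 0.51 (FDR 1, 0.837, 1 and 0.883). The sign at 3 h was that of 1 library: without replicate 2 of 30WL the terms of HSFA2 and HSFB2B at 3 h were 0.79 and 0.48, still not called (FDR 0.986 and 0.981, beside 0% of all genes), and without replicate 1 HSFB2B was called (-1.45). At an unadjusted p under 0.05 in edgeR's model there were 2, HSFA7A at 3 h and HSFA1A at 6 h. With replicate 2 of 30WL at 3 h left out, edgeR gave HSFA7A an unadjusted p of 0.52 (FDR 0.995). HSFB2B then had unadjusted p of 0.0038, 0.019, 0.0043 and 0.0064 at 1, 3, 6 and 24 h in edgeR, and HSFA2 had 0.031 at 1 h. With each time point fitted alone in edgeR, the unadjusted p at 1, 6 and 24 h was 0.032, 0.0105 and 0.00503 for HSFA2 and 0.0112, 0.00797 and 0.0103 for HSFB2B. The smallest FDR among these values was 0.470.

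**Figure D4:**
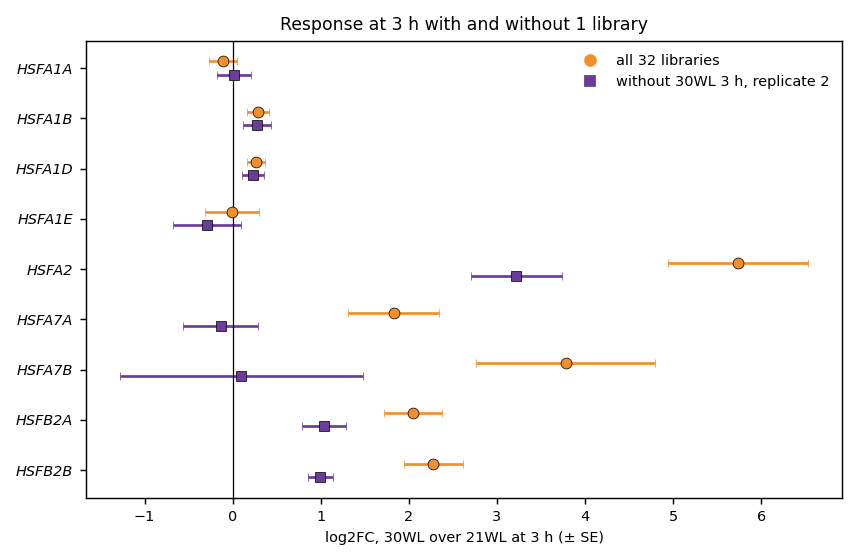
Log2FC of 30WL over 21WL at 3 h with its SE (x axis) for 9 HSFs (rows), fitted to all 32 libraries (orange circles) and without replicate 2 of 30WL at 3 h (purple squares). HSFA7A and HSFA7B moved to about 0 (-0.14 and 0.10), HSFA2 stood at 3.22 instead of 5.74, and HSFA1E at -0.29 instead of -0.01.

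Whether the response at 24 h differed from that at 1 h was tested directly. For HSFA2 the difference was -2.44 in 30WL (95% interval -4.85 to -0.02) and -2.41 in 30FR (-4.72 to -0.09) on the log2 scale, not called with all libraries (FDR 0.327 and 0.204, unadjusted p = 0.048 and 0.042 in edgeR's model). Without replicate 2 of 30WL at 3 h, which is in none of the groups compared, the differences were -2.43 and -2.40. These values hardly moved, yet both were then called. That is not independent support, since the library was picked by its HSF and target levels. HSFB2A had -0.49 and -0.61 (FDR 0.684 and 0.478) and HSFB2B 0.09 and 0.19 (FDR 0.953 and 0.858), so that no loss of the HSFB2B response was seen, within intervals of -0.89 to 1.08 in 30WL and -0.76 to 1.14 in 30FR. Over the HSFs, 0 were called in either condition, beside 0.74% of all genes in 30WL and 2.21% in 30FR, and without that library 1 in each (HSFA2), beside 0.799 and 2.18%. DESeq2 called 0 in both.

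Of the other 11 members of the HSF family, 9 passed the expression filter (HSFA9 and HSFB3 did not). Of these, 0 were called higher in 30WL over 21WL at 1 h in edgeR's test, beside 2.28% of all genes. In 30FR 1 was, HSFA6B (log2FC 1.30, FDR 0.0179), beside 3.52%. An unadjusted p under 0.05 in edgeR's model was seen for 4 in 30WL, given without a share of all genes. In the average over light at 3 h, 2 were called lower, HSFA6B (-1.03, FDR 0.0071) and HSFA6A (-2.49, FDR 0.0444), beside 2.04% of all genes. With replicate 2 of 30WL at 3 h left out, HSFA6B kept its call (-1.33, FDR 0.00528) and HSFA6A lost it (-2.07, FDR 0.146), beside 1.9% of all genes. HSFA3, an activator that is switched on downstream of DREB2A in Arabidopsis, had 5.84 to 12.2 CPM in the warmth against 2.91 to 6.14 CPM at 21 °C. It was called at 6 h in 30FR (1.33) and 30WL (1.04) and at 24 h in 30FR (1.31, FDR 3.06e-05), and its values at 1 h were 0.83 in 30FR and 0.96 in 30WL. HSFC1 was lower in the warmth, by log2FC of -0.81 in 30FR and -0.71 in 30WL at 1 h (FDR 0.00339 and 0.0114), and had 5.70 to 11.4 CPM there against 9.73 to 15.5 CPM at 21 °C. HSFB4 at 1 h (0.53 in 30FR and 0.42 in 30WL) and HSFA8 in 30FR at 6 h (0.92) and 24 h (0.82) were past the FDR threshold only, as was HSFC1 at 1 h. The 30 °C and 21 °C ranges of HSFA4A (4.53 to 8.95 and 5.54 to 8.14 CPM), RHA1 or HSFA4C (9.97 to 15.5 and 9.04 to 13.3 CPM), HSFA5 (8.46 to 13.5 and 8.75 to 14.7 CPM) and HSFA6A (0.104 to 3.50 and 0 to 7.63 CPM), pooled over times, overlapped, as did those of HSFA3 and HSFC1. At 3 h HSFA5 was past the FDR threshold as lower in 30FR (-0.47, FDR 0.0232) and in 30WL (-0.45, FDR 0.0372), the second not without replicate 2 of 30WL (-0.38, FDR 0.227).

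The 22 listed genes known as HSF targets rose in the warmth. This list was chosen with earlier results of these data known, so its numbers are a description and not independent support. All 22 passed the filter. At 1 h edgeR called 22 higher in 30FR over 21WL and 21 in 30WL, beside 3.52 and 2.28% of all genes. At 24 h it called 15 and 10, beside 1.72 and 0.953%. The 24 h numbers were 18 and 17 with replicate 2 of 30WL at 3 h left out. In 21FR 0 were called at either time in edgeR's test, nor was any at an unadjusted p under 0.05 (1 at 1 h and 2 at 24 h without that library). Their median log2FC was 6.15 in 30FR and 5.65 in 30WL at 1 h and 3.03 and 2.86 at 24 h, against -0.02 and -0.01 at 1 h and 0.01 and 0.00 at 24 h for all genes. HSP17.6II, a cytosolic small heat shock protein, had a log2FC of 9.82 ± 0.58 (SE) in 30WL at 1 h, AT2G29500 of 7.20 ± 0.37 and HSA32, needed for lasting heat tolerance, of 4.56 ± 0.27. At 24 h in 30FR HSP90.1 stood at 3.57 ± 0.49, AT5G48570 at 3.48 ± 0.40 and GolS1 at 3.14 ± 0.38.

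**Figure D5:**
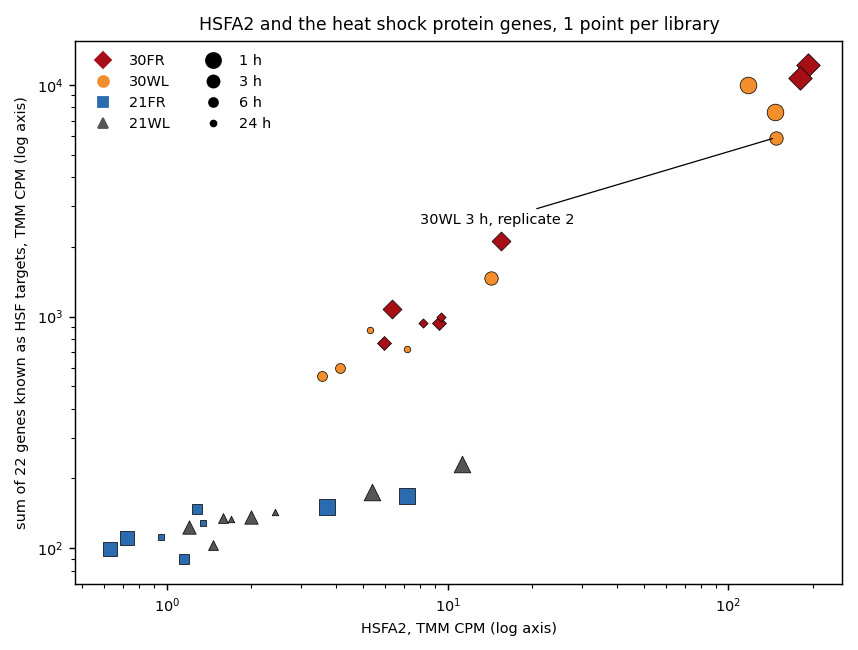
Level of HSFA2 (x axis, CPM, log axis) and summed level of 22 genes known as HSF targets (y axis, CPM, log axis), 1 point per library, with colour and shape for the condition and size for the time point. The 16 warm libraries lie at 552 to 12128 CPM of targets and the 16 cool ones at 89.9 to 231 CPM, and replicate 2 of 30WL at 3 h (148 CPM of HSFA2) lies beside the warm libraries of 1 h.

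A list of 9 genes, drawn up as partners and inhibitors of HSFs, was followed. It held HSBP, a small protein that binds HSFs, and the HSP70 and HSP90 genes whose products hold HSFA1 factors. It also held the co-chaperone ROF1, which binds HSP90 together with HSFA2, and NF-YC10, whose link to HSFs was not tested here. At 1 h, 3 of the 9 genes passed as higher in 30FR over 21WL and 1 in 30WL, beside 3.52 and 2.28% of all genes. The numbers at 24 h were 1 and 0, beside 1.72 and 0.953%. Hsp81.4 was past the FDR threshold as lower in 30WL at 1 h (-0.39, FDR 0.0274). At 24 h in 30WL 3 of the 9 had an unadjusted p under 0.05 in edgeR's model, given without a share of all genes. Hsp70-2 (0.81, FDR 0.0215) and ROF1 (0.61, FDR 0.0604) were higher and HSBP was lower. ROF1 had log2FC of 1.96 in 30FR and 1.67 ± 0.21 (SE) in 30WL at 1 h and was not called at 24 h in 30FR (0.70). Constitutive HSC70-1 stood at 0.64 ± 0.14 in 30WL at 1 h and NF-YC10 at 0.54 ± 0.13, both past the FDR threshold only. Hsp70-2 was called in 30FR at 1 h (1.20) and 24 h (1.54). HSBP had 59.0 to 79.9 CPM in the warmth against 67.9 to 82.3 CPM at 21 °C. Its log2FC at 24 h was -0.21 in 30FR and -0.22 in 30WL, not called (FDR 0.119 and 0.140).

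Correlations of log2 CPM over the 32 libraries, which share the temperature steps and are given as a description, placed each HSF beside other transcripts. HSFA2 was most like AT3G07090 (r = 0.982), the disaggregase gene HSP101 (0.978) and the small heat shock protein gene AT1G59860 (0.978), and without replicate 2 of 30WL at 3 h the same 3 genes led. HSFB2A was most like RBL14 (0.957), RHC1A (0.955) and MBF1C, a heat-induced coactivator (0.949), and HSFB2B like AT1G55530 (0.956), AT1G26800 (0.945) and the splicing factor gene SR45a (0.937). Without the library RHC1A (0.971), AT3G12760 (0.960) and MBF1C (0.950) led for HSFB2A, and SR45a (0.948), AT1G55530 (0.935) and MUG1 (0.931) for HSFB2B. HSFA7B was closest to Fes1A, a partner of cytosolic HSP70 (0.892), to AT3G07090 (0.861) and to AT1G54050 (0.86), but without that library to GSTF8 (0.918), CRT1b (0.896) and BI1 (0.891). With a pseudocount of 2 in place of 0.5, AT1G71000 (0.918), Fes1A (0.899) and AT1G55530 (0.875) led for HSFA7B, so that its order depends on the pseudocount. HSFA7A was closest to AT1G14200 (0.817), AT4G30490 (0.797) and SGT1A (0.775). Without the library AT4G30490 (0.843), AT5G14120 (0.823) and ACHT5 (0.797) led. Among the HSFA1 genes the closest were AT3G20010 (0.867), AT5G59830 (0.855) and HYL1 (0.826) for HSFA1D, AT2G02570 (0.831), AT3G47160 (0.829) and AT1G18335 (0.823) for HSFA1B, AT1G16850 (0.88), SUS3 (0.867) and AT5G63350 (0.848) for HSFA1E, and RBOH F (0.739), RWA3 (0.67) and UCP2 (0.668) for HSFA1A, whose closest gene without that library was AT5G06265 (0.725). Between HSFs, HSFA2 correlated with HSFB2B at r = 0.917 (0.930 without that library), with HSFB2A at 0.857 and with HSFA7B at 0.836, but with HSFA1A at -0.297.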

How the data were processed

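RNA from 32 pools of whole Col-0 seedlings was sequenced from stranded polyA libraries. The authors mapped the reads with STAR 2.5.4 to TAIR10 and counted them per gene with HTSeq 0.6.0 (reverse strand, intersection-strict), and the count table was used as deposited. Reads that mapped to several places (10.5 to 50.4% of a library's total), to no gene (2.47 to 3.58%) or to more than 1 gene stayed out of the counts and of all library sizes. The authors also deposited normalized CPM, a signal equal to the count times 1 factor per library, which was used only as an alternative scaling.

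The counts were fitted in edgeR 4.0.16 (R 4.3.3) with TMM factors, 1 coefficient for each of the 16 groups and 34 contrasts, for the 20145 of 33602 genes with over 1 CPM in 2 or more libraries. DESeq2 1.42.0, DESeq2 size factors, a likelihood ratio test, no expression filter, each time point alone, a replicate block and leaving out each library were run as alternatives. The fit was also run on simulated data, with the same spread for all genes and changes planted in well-counted genes only. That run does not speak for scarce genes such as HSFA7B or for genes with a wide spread such as HSFA2. All 10 members are named, with all other HSFs and, of each other list, the 3 genes with the smallest FDR in 30WL at 1 h and in 30FR at 24 h. Further genes of these lists whose values are given were chosen after their values were seen. The members and lists were chosen with earlier results of these data known. Replicates are biological according to the study. Replicate numbers were not taken to pair the samples. Over 120 pairs of groups and 12722 genes, deviations of same-numbered libraries correlated at -0.588 to 0.688 (median 0.029). Of these pairs 44 exceeded 0.1, and pairs of groups within 1 time point were not examined apart. Symbols and promoter sequences come from RefSeq TAIR10.1 (32835 identifiers matched).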

Additional observations from a re-analysis of the deposited data

How the results depend on the processing

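Counts are of the 9 tested HSFs. With the FDR threshold alone, 6, 5 and 4 were called at 1, 6 and 24 h for warmth averaged over light, 2 in 30WL over 21WL at 6 h, and 5 and 3 in 30FR over 21WL at 6 and 24 h, beside 21.2, 16.9, 14.7, 6.43, 12 and 9.29% of all genes in that order. With each time point fitted alone, 3 were called at 3 h in 30WL over 21WL and for the averaged warmth, 0 in 30FR over 21WL and in 30FR over 30WL, and 1 in 30FR over 21FR, while 1 was called in 30WL over 21WL at 6 h and at 24 h and 2 in 30FR over 21WL at 24 h. The likelihood ratio test, no expression filter and DESeq2 each gave 2 in 30FR over 21WL at 24 h. DESeq2 size factors gave 1 in 30FR over 21WL at 6 h. For 21WL over its 1 h level, the likelihood ratio test gave 1 at 6 h and 1 at 24 h, and DESeq2 1 at 6 h. The counts of these alternative fits stand without a share of all genes beside them. They show only the shift from the main fit, and the cause of these shifts was not tested.

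With the replicate block, 1 HSF was called in 30FR over 21WL at 6 h (HSFA2 at 2.33 lost its call, FDR 0.0546), and HSFA7A fell under the fold threshold for averaged warmth at 3 h (0.99). The block changed no other call of a single HSF (304 values kept theirs). Whether the numbers pair the samples within a time point was not tested.

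Leaving out 1 library at a time gave these ranges of the number called, without a share of all genes beside them. In 30WL over 21WL it was 1 to 3 at 1 h, 2 to 5 at 3 h and 0 to 1 at 24 h. In 30FR over 21WL it was 0 to 3 at 3 h, 0 to 2 at 6 h and 0 to 2 at 24 h. In 30FR over 21FR it was 2 to 4 at 1 h, 0 to 3 at 6 h and 0 to 3 at 24 h. For averaged warmth it was 3 to 5 at 3 h, 0 to 1 at 6 h and 1 to 2 at 24 h. In 30FR over 30WL it was 0 to 5 and in the interaction 0 to 1 at 3 h. It was 0 to 1 for the change of response between 1 and 24 h in 30WL and in 30FR, and 0 to 1 for 21WL at 6 and at 24 h over 1 h. The log2FC of HSFA7A in 30WL over 21WL at 3 h ranged over -0.14 to 2.60 and that of HSFA7B in 30FR over 30WL at 3 h over -4.38 to 0.17. Where a library was left out, the lone replicate of its group was taken to vary like the other groups. Over all single HSF values, 2005 kept direction and call, 76 lost a call, 14 gained one and 2 reversed. The search for similar genes, the other gene lists and the levels per kb without replicate 2 of 30WL at 3 h were chosen after seeing the data. That library was itself singled out by its HSF and target levels. Leaving it out lowered the fitted spread of such genes, HSFA2 and HSFB2B among them. Calls gained without it are therefore not independent support. HSFA7B had at most 15 counts per library at 6 and 24 h, which limits any statement there.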
